A study of Oryctolagus cuniculus with 24 samples.

Results

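The genes ATP6V0D2, ACP5, MGP and CHI3L1 were examined in cultured peripheral blood mononuclear cells (PBMCs) of the rabbit. They are 4 of 28870 genes on the array and carry 15 of its 42089 probes. They were selected on measured values of these arrays, for their rise in unstimulated culture between T4 and T24 or for the block of that rise by stimulation, so the levels at T24 and the change from T4 to T24 are given as a description with no test. PBMCs, the lymphocytes and monocytes of blood, came from 4 adult female New Zealand White rabbits (rabbits 1, 2, 4 and 5), and a culture of every animal was measured on its own array in each of 6 groups. Cells were mock-stimulated (medium without an agent), stimulated with LPS at 1 µg/mL, or stimulated with PMA at 10 ng/mL together with ionomycin at 1 µg/mL, and were harvested 4 h (T4) or 24 h (T24) later. LPS, a lipopolysaccharide of the bacterial outer membrane, acts on monocytes and other cells that carry its receptor. PMA-Ionomycin combines an activator of protein kinase C with a calcium ionophore and by-passes surface receptors. All groups were bulk cultures of the mixed cells, and the mock T24 cultures differ from the mock T4 cultures only in time in medium.

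Osteoclasts are multinucleated cells of the monocyte lineage that resorb bone. Under CSF1 and RANK ligand their precursors fuse, seal off a patch of bone, acidify it with a proton pump (the vacuolar ATPase, V-ATPase) and digest its matrix with acid hydrolases. Macrophages that mature in culture use many of the same lysosomal genes. ATP6V0D2 is the d2 subunit of the membrane sector of the V-ATPase and acts in the fusion of osteoclast precursors. ACP5 is the tartrate-resistant acid phosphatase by which osteoclasts are stained. MGP, matrix Gla protein, is a secreted inhibitor of calcification that needs vitamin K-dependent carboxylation. CHI3L1 (YKL-40) is a secreted, enzymatically inactive member of the chitinase family, made by maturing macrophages among other cells. MGP and CHI3L1 are not defining genes of the osteoclast, so the 4 genes are named here by symbol and not as an osteoclast signature.

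The array reads each gene through probes of 60 bases. The sequences below, taken from the array files, are shown because each value rests on them and because ACP5 and CHI3L1 have 1 probe only. In the MGP probes, capitals mark the 51 bases that 5 of its 9 probes share, so these 5 are near-copies of a single measurement. The first of the 4 ATP6V0D2 probes lies on chromosome 3 from 101633821 to 101635459 of build oryCun2, on the plus strand. This probe and the next each span 1639 bp of the genome with 60 bases, so they cross an intron and read spliced RNA. The MGP probes lie on chromosome 8 between 24716369 and 24716622 (oryCun2, plus strand). The ACP5 and CHI3L1 probes carry no position in the files.
ATP6V0D2, first probe: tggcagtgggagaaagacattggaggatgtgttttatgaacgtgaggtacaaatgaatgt
ACP5: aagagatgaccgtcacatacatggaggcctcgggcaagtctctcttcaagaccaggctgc
CHI3L1: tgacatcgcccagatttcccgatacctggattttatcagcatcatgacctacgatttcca
MGP, first probe: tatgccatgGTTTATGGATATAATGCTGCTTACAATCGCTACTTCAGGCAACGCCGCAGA
MGP, another probe: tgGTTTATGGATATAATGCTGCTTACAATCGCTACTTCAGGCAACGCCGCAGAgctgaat
The files describe the ATP6V0D2 probes as d1-like, and the accession they carry names ATP6V0D2 in RefSeq (mOryCun1.1). ATP6V0D1, the subunit found in most cells, has a probe of its own and was read separately. The CHI3L1 probe was added to the array with other immune genes, was named by its Ensembl identifier and was spotted 3 times.

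A level is the log2 median spot intensity minus the median of all non-control spots of the same array, so 0 is the array median and a difference of 1 is a factor of 2. Levels of different genes come from different probes and were not compared. Where a group was not above background on all of its 4 arrays, a fold is given as a lower bound ("at least") from the mean of a gene's probes: the brighter group's mean level against the dim group's mean, with each dim array set no lower than the lowest level of any probe well above background on it. This bound covers the background only, so single rabbits, single probes and other alternatives can give a smaller fold. Between 51.4% and 62.3% of spots were well above background on each of the 24 arrays. The arrays lay on 3 slides of 8, and each slide held arrays of all 6 groups. No array was left out. In bulk cultures, fewer cells of a type and less RNA per cell cannot be told apart.

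ATP6V0D2 was at the limit of detection at T4 in mock culture and clearly detected after a day in medium. In the mock T4 cultures its level was -0.09, -0.60, -0.58 and -0.95 in rabbits 1, 2, 4 and 5, and most of its probes were well above background on 1 of the 4 arrays. In the mock T24 cultures it was 5.20, 5.92, 6.80 and 5.70, above background on all arrays. The groups did not overlap, and the rise was 6.46 ± 0.87 on the log2 scale (mean ± SD of the within-rabbit differences, n = 4), at least 86.6-fold. Over the alternatives the rise ran from 6.10 to 8.70, the largest with background-subtracted signals.

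Both stimulations left ATP6V0D2 lower at T24 than mock, but from different starting levels. With LPS the T24 levels were 3.30, 2.86, 2.55 and 3.64, a difference of -2.82 ± 1.08 from mock with no overlap. With PMA-Ionomycin they were 3.31, 3.30, 2.36 and 2.16, a difference of -3.13 ± 1.11, again with no overlap. The LPS and PMA-Ionomycin groups overlapped at T24. In the LPS cultures the gene was higher by 3.60 ± 0.78 than at T4, where it was above background on 2 of 4 arrays (at least 11.9-fold), and in the PMA-Ionomycin cultures the change from T4 was 0.83 ± 0.49.

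At T4 PMA-Ionomycin had already raised ATP6V0D2. The PMA-Ionomycin T4 levels were 2.66, 1.95, 2.13 and 1.07, all above background and all higher than any mock or LPS level at that time. The difference from mock was 2.51 (SE 0.35, at least 5.58-fold; adjusted p = 7.86e-06 by limma), higher in 4 of 4 rabbits, and 4.55 with background-subtracted signals. The difference from LPS at T4, where 2 of 4 arrays were above background, was 2.46 (SE 0.35, at least 5.41-fold; adjusted p = 8.68e-06 by limma), and 4.36 with background-subtracted signals. LPS did not separate from mock, with T4 levels of -0.27, -0.21, -0.49 and -1.07 and a difference of 0.04 (SE 0.35; adjusted p = 0.966 by limma). Within slides the PMA-Ionomycin difference from mock at T4 ran from 1.40 to 3.26, and over the alternatives from 2.15 to 4.55. Against LPS the alternatives ran from 2.17 to 4.36. The T4 comparisons of all 4 genes share the mock T4 arrays with the rise. The stimulated T4 arrays also enter the change from T4 to T24 with stimulation. The p-values at T4 are thus not independent of how the genes were chosen.

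ACP5 was well above background on every array. In mock culture its level went from 3.57, 4.35, 4.45 and 3.76 at T4 to 5.07, 5.41, 6.11 and 5.56 at T24. The groups did not overlap, and the rise of 1.5 ± 0.32, or 2.84-fold, was present in 4 of 4 rabbits. With PMA-Ionomycin the T24 levels were 3.84, 3.68, 3.94 and 3.05, all below every mock T24 level, and the difference from mock was -1.91 ± 0.56. With LPS the T24 levels were 4.52, 5.13, 4.40 and 4.43. They lay below the mock level of the same rabbit in 4 of 4 animals, with a difference of -0.92 ± 0.64, but the groups overlapped.

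At T4 ACP5 was lower with LPS than with mock. The LPS T4 levels were 2.85, 3.31, 2.48 and 2.98, with no overlap with mock, and the difference was -1.13 (SE 0.25, 2.18-fold lower in 4 of 4 rabbits; adjusted p = 0.0389 by limma). This call was lost in 9 of 15 alternatives, with adjusted p up to 0.48, and was lost when any of rabbits 1, 2, 4 or 5 was left out (adjusted p from 0.0551 to 0.48). Within slides the difference ran from -1.53 to -0.45. With PMA-Ionomycin the T4 levels were 3.17, 3.47, 3.89 and 3.42, and the difference from mock was -0.55 (SE 0.25; adjusted p = 0.136 by limma), which passed under quantile normalization (-0.73; adjusted p = 0.0346 by limma). PMA-Ionomycin against LPS gave 0.58 (SE 0.25; adjusted p = 0.0964 by limma). From T4 to T24 the LPS cultures gained 1.72 ± 0.20, close in size to the rise in mock. The PMA-Ionomycin cultures changed by 0.14 ± 0.43.

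MGP was near the array median at T4 in every culture, higher at T24 in mock and LPS cultures, and near its T4 level at T24 with PMA-Ionomycin. Its mock T4 levels were -0.18, -0.40, -0.02 and -0.54, and its mock T24 levels were 5.08, 5.09, 6.32 and 4.42, with no overlap. The rise was 5.51 ± 0.59 over its 9 probes. With LPS the T24 levels were 3.21, 4.44, 4.69 and 3.25, lower than the mock level of the same rabbit in 4 of 4 animals by -1.33 ± 0.54 on average, though the LPS levels of rabbits 2 and 4 reached above the lowest mock level. With PMA-Ionomycin the T24 levels were -0.43, -0.27, -0.61 and -0.83, at the T4 level. The PMA-Ionomycin difference from mock at T24 was -5.76 ± 0.78, and the change from T4 in these cultures was 0.10 ± 0.13.

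In the T4 groups and with PMA-Ionomycin at T24, most MGP probes were above background on no more than 1 of 4 arrays, so the folds of MGP depend on how the background is treated. The rise was 7.18 and the PMA-Ionomycin difference -8.05 with background-subtracted signals. A single MGP probe, the last along the chromosome, was above background on all 24 arrays. By this probe the rise was 4.49 (22.4-fold) and the PMA-Ionomycin difference at T24 was -4.93. At T4 no difference was called for MGP by limma. LPS levels were -0.44, -0.39, -0.25 and -0.69 and gave -0.16 against mock (SE 0.31; adjusted p = 0.845). PMA-Ionomycin levels were -0.61, -0.47, -0.71 and -0.74 and gave -0.35 against mock (SE 0.31; adjusted p = 0.565) and -0.19 against LPS (SE 0.31; adjusted p = 0.743). With background-subtracted signals the PMA-Ionomycin difference from mock was -1.45 and passed (adjusted p = 0.0234 by limma). By the probe above background throughout, the T4 levels were 1.31 ± 0.39 in mock, 1.22 ± 0.27 with LPS and 0.90 ± 0.16 with PMA-Ionomycin (mean ± SD, n = 4), and the ranges of the 3 groups overlapped.

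CHI3L1 was higher at T24 than at T4 in mock and in LPS cultures, while the change in PMA-Ionomycin cultures was 0.17 ± 0.80. Its mock levels went from 4.01, 5.12, 4.86 and 3.69 at T4 to 7.20, 6.53, 6.15 and 5.40 at T24, a rise of 1.90 ± 0.88 (3.74-fold) with no overlap. In rabbit 1 the rise was 3.19, and in the other rabbits it lay between 1.30 and 1.71. With LPS the T24 levels were 6.81, 6.22, 6.74 and 6.17, within the range of mock, and the difference of 0.16 ± 0.60 was positive in 2 of 4 rabbits. With PMA-Ionomycin the T24 levels were 4.60, 4.79, 4.16 and 3.96, all below mock and LPS, and the difference from mock was -1.94 ± 0.49. Of the 4 genes CHI3L1 was the one whose T24 level with LPS was not below mock.

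At T4 the levels of CHI3L1 with LPS lay below mock in every rabbit. The LPS T4 levels were 3.65, 3.14, 2.25 and 2.49, with no overlap with mock. The difference was -1.54 (SE 0.39) and missed the threshold (adjusted p = 0.0556 by limma). It passed in 3 of 15 alternatives, among them the rabbit as a block (adjusted p = 0.0177 by limma). When 1 rabbit was left out it ran from -1.93 to -1.18 (adjusted p from 0.0541 to 0.604 by limma). Within slides the difference ran from -2.18 to -0.55. The change from T4 to T24 in LPS culture was 3.60 ± 0.65, or 12.1-fold, against 3.74-fold in mock. PMA-Ionomycin levels at T4 were 4.11, 4.07, 5.17 and 3.46, and the difference from mock was -0.22 (SE 0.39; adjusted p = 0.836 by limma). Against LPS at T4, PMA-Ionomycin was higher by 1.32 (SE 0.39, 4 of 4 rabbits; adjusted p = 0.0127 by limma), although the groups overlapped, and without rabbit 4 the difference was 0.78 (adjusted p = 0.272 by limma). It also missed the threshold under quantile normalization (0.98; adjusted p = 0.0534 by limma), and within slides it ran from 1.04 to 1.48.

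**Figure D1:**
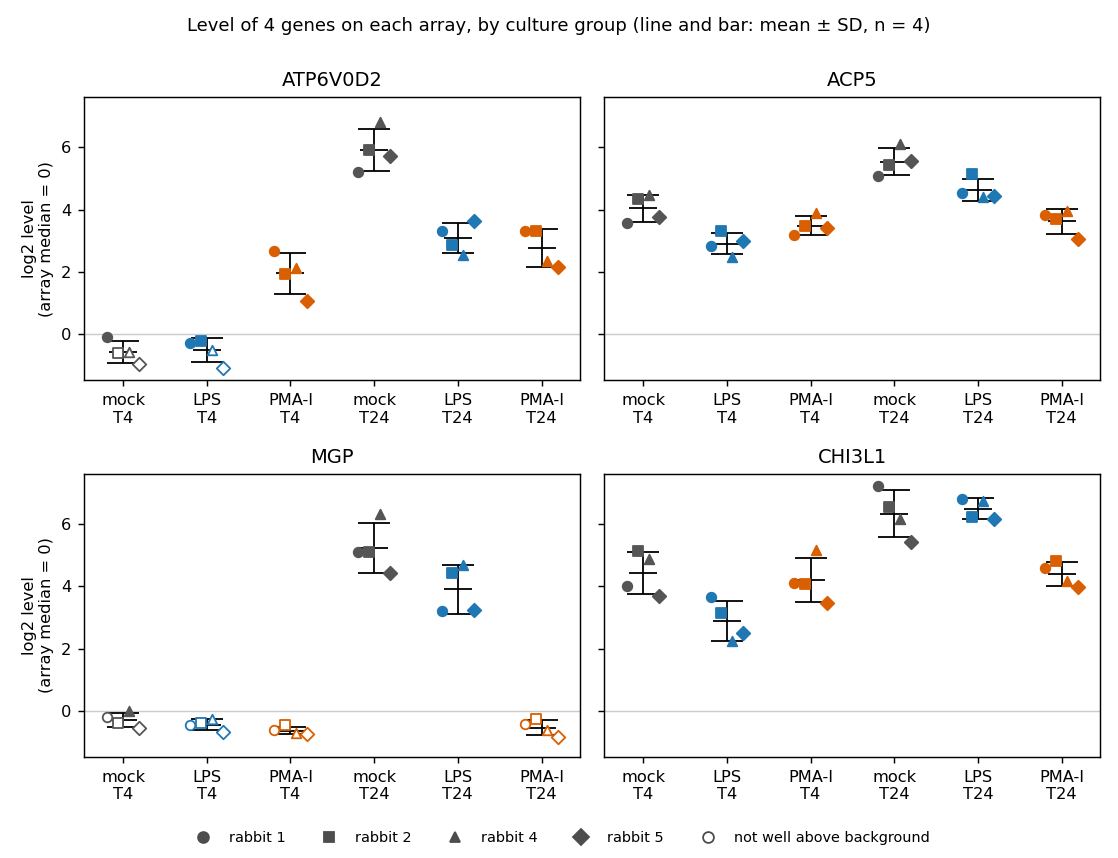
Level of each gene on each of the 24 arrays (y axis, log2 relative to the array median) in the 6 culture groups (x axis; PMA-I is PMA-Ionomycin), with a symbol shape for each rabbit, open symbols where most probes of the gene were not well above background, and the mean ± SD of 4 arrays. The mock T24 levels lie above the mock T4 levels in all panels. MGP with PMA-Ionomycin at T24 stays at its T4 level, and CHI3L1 with LPS at T24 lies in the mock range.

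Across all genes 7.42% were higher and 5.14% lower in mock T24 than in mock T4 at an adjusted p below 0.05. All 4 genes were chosen on that contrast or on its block by stimulation, so nothing is read from their place in it. At T4, 1 of the 4 was called lower with LPS (ACP5), where the share over all genes was 0.974% lower and 0.0556% higher, and 1 was called higher with PMA-Ionomycin (ATP6V0D2), where the shares were 13.5% higher and 9.36% lower. Against LPS at T4, 2 of the 4 were called higher with PMA-Ionomycin (ATP6V0D2 and CHI3L1), where 17.7% of all genes were. With the rabbit as a block 1229 rather than 296 genes were called for LPS at T4, and 746 rather than 350 for LPS at T24. Without rabbit 2 or without rabbit 4 no gene of the array was called for LPS at T4 by limma (3167 and 2091 genes had an unadjusted p below 0.05). Every LPS call at T4 given here was thus lost when either rabbit was left out. ACP5 gave -1.16 without rabbit 2 and -0.85 without rabbit 4, against -1.13 with all rabbits. It was also not called without rabbit 1 or rabbit 5.

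**Figure D2:**
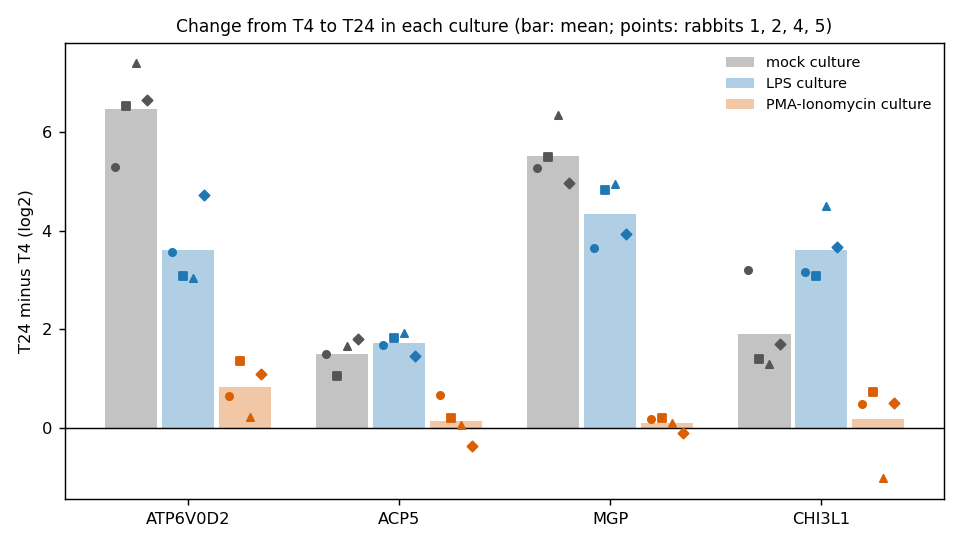
Change from T4 to T24 (y axis, log2) of each gene (x axis) in mock, LPS and PMA-Ionomycin cultures, with bars at the mean of 4 rabbits and a point for each rabbit. The mock bars stand at 6.46, 1.5, 5.51 and 1.90, the LPS bars at 3.60, 1.72, 4.34 and 3.60, and the PMA-Ionomycin bars at 0.83, 0.14, 0.10 and 0.17.

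**Figure D3:**
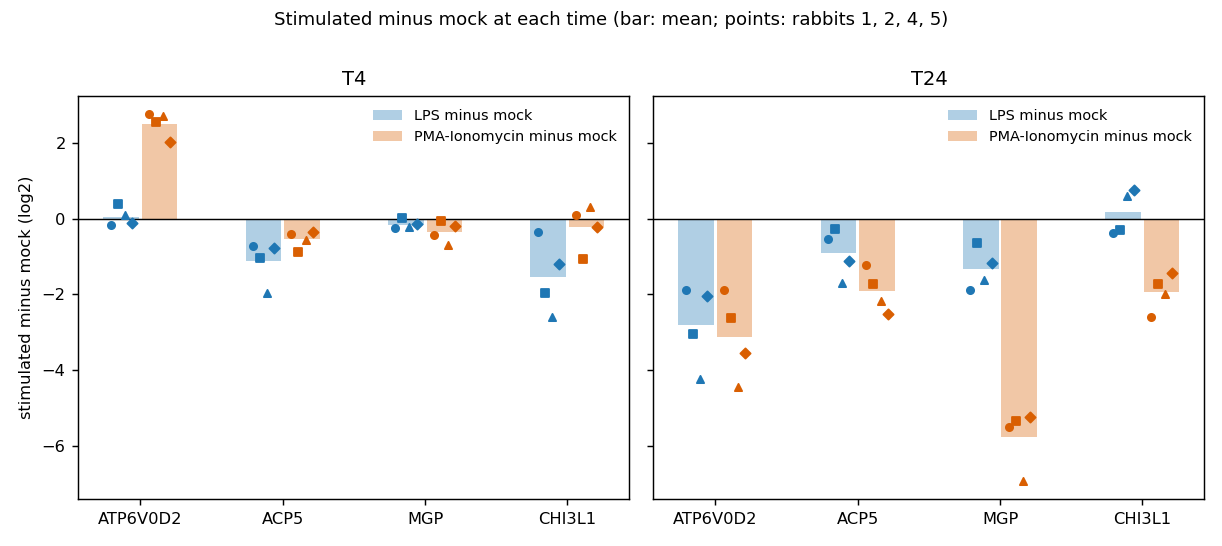
Stimulated minus mock (y axis, log2) of each gene (x axis) at T4 and at T24, for LPS and PMA-Ionomycin, with bars at the mean of 4 rabbits and a point for each rabbit. ATP6V0D2 with PMA-Ionomycin lies above 0 at T4 and below 0 at T24 in every rabbit, and CHI3L1 with LPS lies below 0 at T4 and on both sides of 0 at T24.

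The order of the 6 groups differed among the genes. ATP6V0D2 was highest in mock T24, followed by LPS T24, PMA-Ionomycin T24 and PMA-Ionomycin T4, whose neighbours overlapped, and then by LPS T4 and mock T4, which also overlapped. MGP fell into mock T24 and LPS T24, which overlapped, and the 4 other groups, which overlapped in turn. ACP5 formed a gradual series from mock T24 through LPS T24, mock T4, PMA-Ionomycin T24 and PMA-Ionomycin T4 to LPS T4, in which each group overlapped the next. CHI3L1 had LPS T24 and mock T24 at the top, overlapping, and LPS T4 at the bottom, overlapping PMA-Ionomycin T4.

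The probes of a gene moved together. The 4 ATP6V0D2 probes gave a rise in mock of 6.19 to 6.93, an LPS difference at T24 of -2.87 to -2.74 and a PMA-Ionomycin difference at T24 of -3.14 to -3.11. The 9 MGP probes gave a rise of 4.49 to 5.95 and a PMA-Ionomycin difference at T24 of -6.14 to -4.93. The smallest of these came from the last MGP probe along the chromosome, whose mean level in the dim groups was 0.86 to 1.31, where the means of the other 8 lay between -1.08 and -0.08. ACP5 and CHI3L1 could not be checked in this way.

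**Figure D4:**
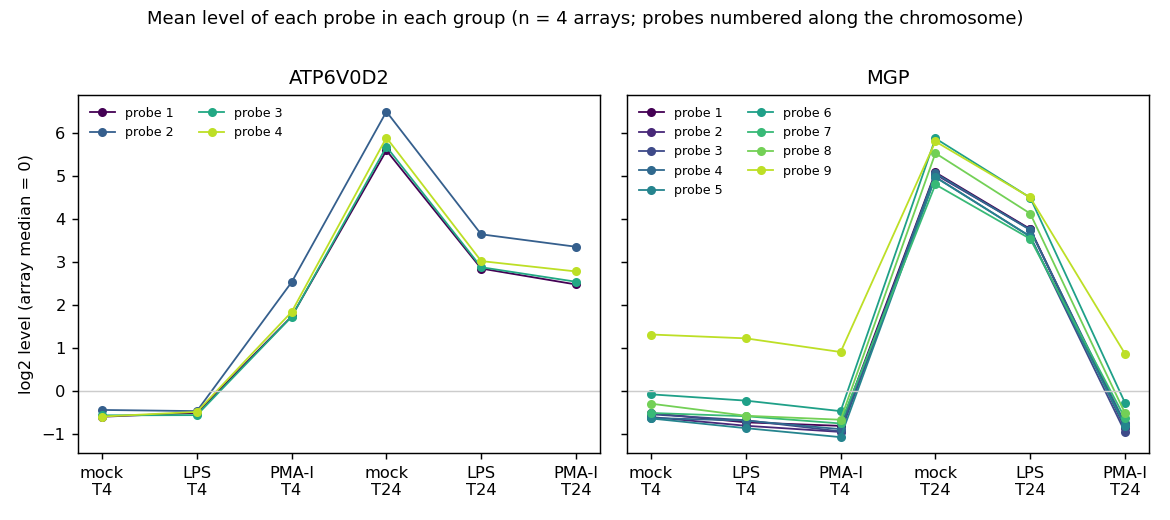
Mean level of each probe of ATP6V0D2 and MGP (y axis, log2 relative to the array median, n = 4 arrays) in the 6 groups (x axis), with probes numbered along the chromosome. The lines run in parallel, except that the last MGP probe stays near 1 in the groups where the other 8 lie below 0.

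Other osteoclast genes were looked at as a list (the lists were written with earlier results of these data known). Of 18 listed osteoclast effectors beside the members, 11 were tested. In mock culture 7 of these rose, 1 fell and 3 were not called, where 7.42% of all genes rose and 5.14% fell. The median of the 11 was 1.83 against -0.06 over all genes. CTSK, the collagen-digesting cathepsin K, rose by 3.78 (SE 0.37, 4 of 4 rabbits). CA2, the carbonic anhydrase that supplies protons to the pump, rose by 3.69 (SE 0.33). MMP9, a gelatinase, rose by 3.29 (SE 0.46), and OSTM1, the partner of a lysosomal chloride transporter, by 2.70 (SE 0.24). DCSTAMP, which precursors need to fuse, rose at least 5.0-fold, from a level not above background on any mock T4 array.

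Not all defining markers behaved in that way. Of 8 such markers, 6 were tested: CTSK, MMP9 and DCSTAMP rose, ITGB3 fell, and CALCR and TNFRSF11A were not above background on any mock array. NFATC1 and OCSTAMP were not analysed here. ITGB3, the β3 chain of the osteoclast's vitronectin receptor and also a platelet integrin, fell by 2.83 on the log2 scale (SE 0.27). CALCR, the calcitonin receptor, had mean levels of -1.17 to -0.81 over the 6 groups, and TNFRSF11A, the receptor RANK, of -1.0 to -0.73. The label of osteoclast-like genes was thus met by a part of the markers only.

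With stimulation the osteoclast effectors moved in both directions, and the calls of higher genes depended on the scaling. With PMA-Ionomycin at T24, 4 of the 11 were lower than mock (CTSK, OSTM1, PLEKHM1 and RAC2) and 3 were higher (CA2, DCSTAMP and ITGB3), where 11.5% of all genes were lower and 22.2% higher. CTSK differed by -2.99 and DCSTAMP by 1.23. Without rabbit 1 or without rabbit 2 none of the 3 higher genes and 3 of the lower genes passed, RAC2 being lost. With background-subtracted signals 5 were lower and none was higher, and under quantile normalization 4 were lower and 1, ITGB3, was higher. With LPS at T24, 1 of the 11 was called, OSTM1, which was lower (-1.27; adjusted p = 0.00503 by limma), where 0.584% of all genes were lower and 0.633% higher, and this call was lost without rabbit 1, 2 or 4 (adjusted p = 0.0502, 0.0563 and 0.213). CTSK was 0.95 with LPS at T24 (adjusted p = 0.283 by limma) and DCSTAMP, above background on 3 of 4 LPS arrays, -1.38 (adjusted p = 0.077 by limma), neither of them called. With the rabbit as a block 3 were lower with LPS at T24, OSTM1, DCSTAMP (adjusted p = 0.0199 by limma) and PLEKHM1 (-0.60; adjusted p = 0.022), and 1 was higher, ITGAV (at least 1.65-fold; adjusted p = 0.00556).

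Genes of RANK and CSF1 signalling showed 6 rises, 1 fall and 11 not called of 18 tested in mock culture. Over all genes 7.42% rose and 5.14% fell. The median of the 18 was 0.50, and 3 rose when rabbit 2 or rabbit 4 was left out. PPARGC1B, a coactivator of mitochondrial genes in osteoclasts, rose at least 9.56-fold (above background on 2 of 4 mock T4 arrays), CSF1R, the receptor for CSF1, rose by 2.92 (SE 0.35) and TYROBP, an adaptor of immune receptors, by 1.72 (SE 0.21). FOS, a transcription factor induced by many stimuli, fell at least 2.06-fold (above background on 1 of 4 mock T24 arrays). TNFSF11, which encodes RANK ligand, was not well above background on any mock array at T4 or T24, so its change in mock culture was not measured. With PMA-Ionomycin at T24, 10 of the 18 were lower than mock, CSF1R by -3.29, where 11.5% of all genes were lower. Another 3 were higher, where 22.2% of all genes were. IL34 and CSF1, both ligands of CSF1R, were higher at least 11.7-fold (IL34 was above background on 3 of 4 mock T24 arrays) and by 2.0 on the log2 scale. TNFSF11 was higher at least 2.18-fold, and was above background on all 4 PMA-Ionomycin T24 arrays and on no mock T24 array. With LPS at T24 the 1 gene called was TNFRSF11B, the decoy receptor for RANK ligand, which was above background on 3 of 4 mock arrays and on no LPS array. It was lower with LPS, where 0.584% of all genes were, with no size given. The call was lost without rabbit 1, 2 or 4. With the rabbit as a block 2 of the 18 were lower and 1 higher.

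ATP6V0D2 is a subunit of the V-ATPase. Of 15 other subunits and accessory proteins of this pump tested, 11 rose in mock culture, none fell and 4 were not called. Over all genes 7.42% rose and 5.14% fell. The median of the 15 was 1.37. ATP6AP1 rose by 2.96 (SE 0.30), ATP6V0B by 2.45 (SE 0.23), ATP6V0C by 2.08 (SE 0.24) and ATP6V1H by 1.98 (SE 0.18). ATP6V0D1, the other d subunit, differed by 0.63 (SE 0.32; adjusted p = 0.251 by limma). At T4, 4 of the 15 were lower with LPS, where 0.974% of all genes were. Among them was ATP6V0D1 by -1.37 (SE 0.32, adjusted p = 0.0435 by limma, and up to 0.36 over the alternatives). None was called at T4 with PMA-Ionomycin, where ATP6V0D2 was raised and 13.5% of all genes were higher and 9.36% lower. The number lower with LPS at T4 ran from 0 to 7 over the alternatives: 7 with the rabbit as a block, 2 under quantile normalization, 1 with background-subtracted signals, and none with only the arrays compared or without rabbit 2 or rabbit 4. With PMA-Ionomycin at T24, 12 of the 15 were lower and none higher, where 11.5% of all genes were lower and 22.2% higher. The median of the 15 was -1.11. With LPS at T24 none of the 15 was called, where 0.584% of all genes were lower and 0.633% higher. The median of the 15 was then 0.28, where ATP6V0D2 lay at -2.82.

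**Figure D5:**
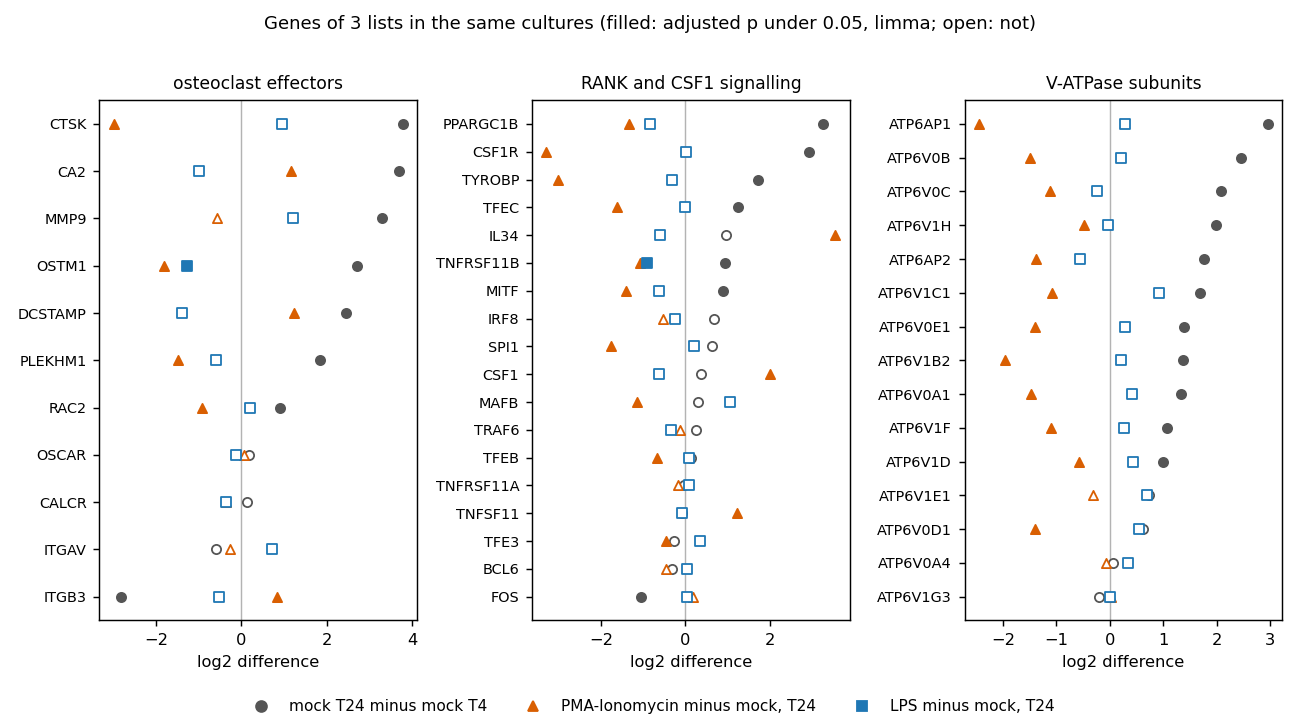
Log2 difference (x axis) of each tested gene (y axis) of the osteoclast effectors, of RANK and CSF1 signalling and of the V-ATPase, for mock T24 minus mock T4 and for each stimulation minus mock at T24. Filled symbols have an adjusted p below 0.05 by limma. In the V-ATPase panel 11 grey circles are filled to the right of 0 and 12 orange triangles to the left, and no blue square is filled.

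The families of the other 3 genes were read in mock culture, where 7.42% of all genes rose and 5.14% fell. Of 6 other acid phosphatases, ACP2, the lysosomal enzyme, rose by 1.64 (SE 0.18), ACP6 fell by 0.50 on the log2 scale (SE 0.16; not called when any 1 of the 4 rabbits was left out), and 4 were not called. Of 5 other chitinase-family genes, CTBS, a lysosomal chitobiase, rose by 2.63 (SE 0.36) and CHIT1, the active chitinase of macrophages, by 2.09 (SE 0.44). Both were lower with PMA-Ionomycin at T24, by -2.80 and -2.82, and CTBS was also lower with LPS (-2.33, lost without rabbit 4 at an adjusted p of 0.0544 by limma), where CHIT1 was not called (0.70; adjusted p = 0.641 by limma). Of 12 Gla and mineral matrix genes beside MGP, 3 rose, 1 fell and 8 were not called, with a median of -0.09. SPP1 (osteopontin) rose by 3.11 (SE 0.70; 2.72 without rabbit 4, with an adjusted p of 0.077 by limma), VKORC1, which recycles the vitamin K that MGP needs, by 1.13 (SE 0.20), and ANKH at least 1.47-fold (above background on 3 of 4 mock T4 arrays). BMP2 was lower in mock T24, where it was above background on no array, than in mock T4, where it was on 3 of 4, so no size is given. The call of ANKH was lost when any 1 of rabbits 1, 2, 4 and 5 was left out, and that of BMP2 without rabbit 1 or 5. SPP1 was higher still with PMA-Ionomycin at T24 (2.74), where MGP was at its T4 level.

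Markers of macrophages and of other cells were read beside these changes. Of 23 macrophage maturation genes, 13 rose in mock culture, none fell and 10 were not called, with a median of 1.20. Over all genes 7.42% rose and 5.14% fell. Over the alternatives 10 to 14 of the 23 rose and 0 to 1 fell. The mean level of the list was 2.27 to 3.06 over the mock T4 arrays and 3.86 to 4.34 over the mock T24 arrays. With PMA-Ionomycin at T24, 13 of the 23 were lower than mock, 6 were higher and 4 were not called. Over all genes 11.5% were lower and 22.2% higher. The median of the 23 was -1.06 and their mean level 2.94 to 3.49. With LPS at T24, 1 was higher, none was lower and 22 were not called, where 0.633% of all genes were higher and 0.584% lower. Over the alternatives 0 to 1 of the 23 was higher with LPS and 0 to 2 were lower. The mean level with LPS was 3.65 to 4.25. LPL, lipoprotein lipase, rose at least 28.2-fold (above background on 2 of 4 mock T4 arrays) and CTSB, cathepsin B, rose by 4.22 (SE 0.36) in mock culture. Of 11 monocyte genes, 3 rose (CD14, CLEC7A and CSF1R, which is also on the RANK and CSF1 list; CD14 was not called without rabbit 1), none fell and 8 were not called. The monocyte list had mean levels of 2.25 to 2.96 in mock T4, 2.64 to 3.79 in mock T24, 2.86 to 3.71 in LPS T24 and 0.96 to 1.56 in PMA-Ionomycin T24, where 7 of 11 were lower than in mock T24. The part of these shifts in the values of the 4 genes was not tested.

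Stromal cells, which make MGP in many tissues, were represented by 11 genes. Of these, 2 rose in mock culture, where 7.42% of all genes did, and 9 were not called. The mean level of the list was -0.62 to -0.46 over the mock T4 arrays and -0.31 to -0.21 over the mock T24 arrays. On all 4 mock T24 arrays 3 of the 11 were above background. COL1A1 was above background on 1 of the 4 mock T24 arrays and none of the mock T4 arrays. Both genes that rose, ACTA2 (smooth muscle actin) and FBN1 (fibrillin), were above background on no mock T4 array and on all mock T24 arrays, and their rises were at least 8.71-fold and at least 2.22-fold. With PMA-Ionomycin at T24 both were lower than mock, at least 10.1-fold and at least 2.39-fold. In that comparison 2 others of the list were higher, COL1A2 and COL6A1, where 11.5% of all genes were lower and 22.2% higher. With LPS at T24 FBN1 was lower, at least 2.38-fold, and ACTA2 was higher by 2.15, where 0.584% of all genes were lower and 0.633% higher. The FBN1 call was lost without rabbit 2 (adjusted p = 0.0907 by limma), without rabbit 4 (0.0517) and with only the arrays compared (0.202).

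Platelet genes went the opposite way. Of 6, 5 fell in mock culture, where 5.14% of all genes did. TUBB1 fell by 4.35 on the log2 scale and TREML1 at least 15.8-fold (above background on 2 of 4 mock T24 arrays). The mean level of the list went from 1.82 to 2.91 in mock T4 to -0.50 to 0.12 in mock T24. With PMA-Ionomycin 5 of the 6 were already lower at T4, where 9.36% of all genes were. Of 5 neutrophil genes 3 rose in mock culture and of 8 B cell genes 1 rose, where 7.42% of all genes did. Of 11 T cell genes 2 fell and of 5 erythrocyte genes 1 fell, where 5.14% of all genes did. The 1 NK cell gene was not called. When rabbit 4 was left out, 1 neutrophil gene, no B cell gene and no T cell gene was called in these directions.

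The genes most like each of the 4 over the 24 arrays were found by Pearson's r of levels among 6279 genes with a symbol that were above background throughout a group. The arrays share groups and rabbits, so r is a description. For ATP6V0D2 they were CPPED1 (0.94), PPARGC1B (0.93), VAT1 (0.93), OSTM1 (0.91) and PLEKHH1 (0.91). For ACP5 they were ARPC1B (0.93), PSAP (0.93), TOM1 (0.92), SMPD1 (0.92) and HEXA (0.91). For MGP they were TGFBR1 (0.97), MOCOS (0.95), UGT3A2 (0.95), CYBB (0.94) and ABCC3 (0.94), and for CHI3L1 ITGB2 (0.95), HEXA (0.95), LIMS1 (0.95) and PLBD2 (0.94). PSAP, SMPD1, HEXA and PLBD2 encode lysosomal proteins. HEXA was on the lists of both ACP5 and CHI3L1.

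Among the 4 genes themselves r of levels was 0.73 to 0.86. After the group means were removed, r between them was 0.16 to 0.35. By deviations from the group means the nearest genes were ALAS1 (0.84), EPHX4 (0.80) and RNF139 (0.78) for ATP6V0D2, CSK (0.74), KCNN4 (0.72) and BSDC1 (0.69) for ACP5, EEA1 (0.79), LYRM7 (0.76) and LNX2 (0.76) for MGP, and RNF19B (0.89), PTAFR (0.85) and ACO1 (0.84) for CHI3L1. None of these was on the list by levels of the same gene.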

How the data were processed

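For each array the authors deposited the files of the scanner, from which the median intensity of each spot was used, uncorrected for background and unscaled (Agilent Feature Extraction 10.7.3.1, build oryCun2 per the file headers). Their deposited log2 values were found to be log2 median signals minus the mean of the array, to within 5e-09. Here log2 median signals were centred by array, on the median over its 61657 spots that are not controls, outlier spots were dropped, and spots were averaged by probe and probes by gene. Probes were named by accession (11506), gene number (8929), identifiers of added immune genes (460) or gene name (81), and 21113 stayed unnamed. A gene counted as above background when a share of over 0.5 of its probes did. Group means were fitted by limma over all 24 arrays, following the study's methods, with eBayes and Benjamini-Hochberg adjustment over 28755 genes and a threshold of 0.05 (R 4.3.3, limma 3.58.1, Python 3.11.15, pandas 2.3.3, matplotlib 3.10.9). The steps were tested on simulated data.

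The members and lists were chosen with earlier results of these data known. Named genes were the members, ATP6V0D1, the osteoclast, RANK and CSF1 genes, in every other list up to 4 genes called in each direction with the largest change in mock culture, and the most alike genes, of which 1 is not reported here. COL1A1 and the values of list genes in other comparisons were chosen after they were seen. Samples are paired because the same animals gave every group: after group means were removed, pairs of arrays correlated with a median r of 0.23 within a rabbit (60 pairs) and -0.07 across rabbits and groups (180 pairs). The number of arrays limits the precision. Alternatives were other normalizations and backgrounds, the authors' log2 values, dim probes left out, outlier spots kept, only the arrays compared, the rabbit or the slide in the model, weighted arrays, a trended and robust eBayes, single probes, and leaving out each rabbit.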

Additional observations from a re-analysis of the deposited data

Results flagged for a closer look

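ATP6V0D2 was higher with PMA-Ionomycin than with mock at T4 in 4 of 4 rabbits and lower at T24 in 4 of 4, and the measured differences, 2.51 and -3.13, lie -5.63 apart on the log2 scale. This size is not exact, since the gene was above background on 1 of 4 mock T4 arrays: with background-subtracted signals the differences were 4.55 and -3.54. The difference between the times was not tested, because the T24 values took part in the choice of the gene.

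ACP5 in the LPS T24 group had a level in rabbit 2 (5.13) apart from the others (4.40, 4.43 and 4.52), with a gap of 0.84 of the range of the group, above the limit set for 4 samples. Of 24 groups of values examined, 1 was marked in this way, and chance marks about 1 in 20.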

How the results depend on the processing

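The rise in mock culture and the lower T24 levels with PMA-Ionomycin kept their direction for the 4 genes under all 15 alternatives, as did the lower T24 levels with LPS for ATP6V0D2, ACP5 and MGP. For CHI3L1 with LPS at T24 the values ran from -0.09 to 0.35. The call of ATP6V0D2 with PMA-Ionomycin at T4 held in 15 of 15. With the processed signal the rise came to 8.70 for ATP6V0D2 and 7.18 for MGP, and MGP with PMA-Ionomycin to -1.45 at T4 (adjusted p = 0.0234 by limma, called) and -8.05 at T24. Under quantile normalization, and with normexp before it, ATP6V0D2 with LPS at T4 was -0.037 and -0.019, CHI3L1 with PMA-Ionomycin at T24 was -2.47 and -2.45, ACP5 with PMA-Ionomycin at T4 passed (-0.73 and -0.72), and CHI3L1 for PMA-Ionomycin against LPS at T4 did not (0.98 and 0.97). ACP5 with LPS at T4 was not called under quantile normalization (-0.99), the processed signal (-0.94), normexp (-0.95), the deposited table (-1.12) or only the arrays compared (-1.13), the last of which holds fewer samples. CHI3L1 with LPS at T4 was called without dim probes (-1.54), with the rabbit as a replicate block (-1.54) and with array weights (-1.52). The cause of these shifts was not tested.

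Leaving out each rabbit gave -0.07 to 0.12 for ATP6V0D2 with LPS at T4, -1.26 to -0.85 for ACP5 with LPS at T4, -0.39 to 0.063 for CHI3L1 with PMA-Ionomycin at T4 and 0.78 to 1.60 for CHI3L1 between the stimulations at T4. Single probes reached 2.97 and 3.0 for ATP6V0D2 with PMA-Ionomycin at T4 against mock and LPS, and -0.28 (LPS at T4), 4.49 (rise) and -4.93 (PMA-Ionomycin at T24) for MGP. Of the osteoclast effectors, 2 rather than 1 were lower in mock T24 with the processed signal, the deposited table, dim probes left out, the rabbit block or array weights, and 1 to 2 when a rabbit was left out. The rabbit block changed the call of no other comparison of the 4 genes at T4. Over all genes, calls ran from 0 to 1229 for LPS at T4 (296 here; the 0 had 3514, 3167 or 2091 genes at an unadjusted p below 0.05) and from 47 to 930 for LPS at T24 (350), and from 2265 to 4614 for the rise in mock (3614). Values of genes near the background, as MGP at T4, are limited by the signal and not ordered.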
